A study of Mus musculus with 20 samples.

Results

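Endothelial cells line the vessels of the brain and form the blood-brain barrier. The 9 genes of these cells described here were chosen by symbol, with earlier results of these data known. They are Mfsd2a, Cldn5, Slc2a1, Pecam1, Flt1, Tek, Abcb1a, Slco1a4 and Ocln. They were all listed in every one of 20 libraries, among 13256 genes, and all 9 passed the filter on low values with 13174 genes in all. RNA was sequenced from hippocampal tissue of mice labelled Fmr1 KO and of C57 mice labelled WT, with 5 libraries for each sex and genotype. Fmr1 encodes FMRP, an RNA-binding protein which is missing in people with fragile X syndrome. Mutants are called KO in the titles and a knockdown in the genotype field. The sources used here do not give the allele, the age of the mice or the meaning of "Con", a word in every title. Nor do they state that the 5 samples of a group were taken from different animals, so that the p-values cover only sample-to-sample spread, which may be technical. Values are FPKM, that is, fragments relative to the length of the transcript and to all mapped fragments, and so levels can be compared between genes. They are no counts, and the depth of sequencing is unknown.

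The barrier rests on tight junctions that seal the gaps between endothelial cells, on transporters that carry nutrients in and foreign compounds out, and on low vesicle traffic through the cells. Claudin-5 and occludin are tight junction proteins. GLUT1, encoded by Slc2a1, carries glucose into the brain, and MFSD2A carries lysophosphatidylcholine with docosahexaenoic acid and restrains transcytosis. Growth factor receptors such as FLT1 and TEK control vessel growth and stability, and Wnt ligands from neural cells induce barrier genes.

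In hippocampi of KO females, Mfsd2a and Slc2a1 were the genes of the 9 that passed the test, and both rose. Of all tested genes, 3.32% passed there. Mfsd2a averaged 6.18 ± 0.836 FPKM in female WT and 9.48 ± 1.81 in female KO (SD, n = 5 each), a ratio of 1.53. Slc2a1 averaged 19.3 ± 2.19 and 25.6 ± 3.99 FPKM, a ratio of 1.32. Its call was kept in 3 of 10 fits that each left out a single library, that of Mfsd2a in 10 of 10. Both calls ended in a fit of only the groups compared and in other fits given below. In males 0 of the 9 passed, where 0.0455% of all tested genes did. The difference of the KO effect between the sexes did not pass for any of the 9. It passed for 0.0455% of all tested genes, so few calls were made in either comparison.

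Some facts of the libraries bear on these values. Fmr1 was at 2.90 to 3.72 FPKM in the KO libraries and at 9.85 to 11.8 in the WT libraries. The Y-linked gene Ddx3y was at most at 0.0286 FPKM in female libraries and at 12.6 to 17.6 in male ones. Across genes, any pair of libraries had a Pearson correlation of 0.976 to 0.990. Ttr, a choroid plexus gene, was above 500 FPKM in 4 libraries, of which 2 were female KO (replicates 4 and 5), 1 was female WT (replicate 4) and 1 was male KO (replicate 2). Prl, a pituitary hormone gene, was above 4 FPKM in 3, which were female KO replicates 2, 3 and 4. Calls that end without these libraries are given with and without them.

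All 9 genes lie on autosomes, and coordinates are those of the deposited tables (mm10). Mfsd2a (ENSMUSG00000028655.11) spans 122946850 to 122961188 on the minus strand of chromosome 4. Slc2a1 (ENSMUSG00000028645.11) spans 119108711 to 119137983 on the plus strand of the same chromosome, 3.84 Mb away, with 27 tested genes between them. Tek (ENSMUSG00000006386.15) is on chromosome 4 as well, from 94739289 to 94874976 on the plus strand. Cldn5 (ENSMUSG00000041378.1), a gene of 1 exon, spans 18776847 to 18778260 on the plus strand of chromosome 16. Ocln (ENSMUSG00000021638.12) spans 100496507 to 100552718 on the minus strand of chromosome 13. Abcb1a (ENSMUSG00000040584.8) and Flt1 (ENSMUSG00000029648.13) are on chromosome 5, from 8660077 to 8748575 on the plus strand and from 147561604 to 147726011 on the minus strand. Slco1a4 (ENSMUSG00000030237.14) spans 141805440 to 141856199 on the minus strand of chromosome 6, and Pecam1 (ENSMUSG00000020717.19) 106654217 to 106750628 on the minus strand of chromosome 11. In GENCODE M21, 7 of the 9 overlapped no other gene. Slc2a1 overlapped Mir1957a on its own strand and Gm12867 and Gm12868 on the other. Abcb1a overlapped Gm42684 on its own strand and Gm42686 on the other, so reads of these 2 members can be shared with those models.

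The promoters of the 2 genes that rose together and of Slco1a4, which did not pass the test in any comparison, are printed for comparison. They come from a set of RefSeq promoters (GRCm38.p6) in which 8 of the 9 genes had an entry, and run 5′ to 3′ on the strand of the gene. The Mfsd2a window is chr4:122961189-122961438 (minus strand), that of Slc2a1 is chr4:119108495-119108710 (plus strand, 216 of the 250 bases before its RefSeq start), and that of Slco1a4 is chr6:141856221-141856470 (minus strand). Capitals mark matches, on either strand, to 5 short motifs. GGAAG is the core of ETS factor sites. ACAAT is that of SOX factors. The core of TCF and LEF factors, the effectors of Wnt, is CTTTGA. That of SP and KLF factors is GGGCGG. The last searched was TATAAA, which none of the 3 held.
Mfsd2a: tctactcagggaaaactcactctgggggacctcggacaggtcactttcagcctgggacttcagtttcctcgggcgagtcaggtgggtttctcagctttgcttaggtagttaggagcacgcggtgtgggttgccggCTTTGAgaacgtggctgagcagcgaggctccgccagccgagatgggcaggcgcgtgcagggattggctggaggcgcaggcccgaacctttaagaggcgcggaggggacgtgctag
Slc2a1: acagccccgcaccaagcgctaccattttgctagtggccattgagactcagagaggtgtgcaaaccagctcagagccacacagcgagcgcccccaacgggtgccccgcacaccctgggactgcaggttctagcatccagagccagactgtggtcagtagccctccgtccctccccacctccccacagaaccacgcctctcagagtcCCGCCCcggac
Slco1a4: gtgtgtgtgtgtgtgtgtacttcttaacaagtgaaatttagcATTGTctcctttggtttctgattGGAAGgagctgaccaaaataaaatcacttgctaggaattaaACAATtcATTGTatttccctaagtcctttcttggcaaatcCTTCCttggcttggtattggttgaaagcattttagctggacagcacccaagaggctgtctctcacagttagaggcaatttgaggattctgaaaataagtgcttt
Mfsd2a held a TCF and LEF match 115 bases before its start, which 13.8% of all 32851 promoter windows of 250 bases also held. Slc2a1 held SP and KLF matches 45 and 20 bases before its start, the second outside the stretch printed, and 32.7% of all windows held one. Slco1a4 held ETS matches, found in 64.1% of windows, and SOX matches, found in 27.7%. No capitals are shared between Mfsd2a and Slc2a1, and a match is a description of letters only. The GC content of the windows was 61.6% for Mfsd2a, 66.4% for Slc2a1 and 39.2% for Slco1a4, against a median of 52.4% over all promoters.

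By level, the 9 genes ran from the 29th to the 85th percentile of all listed genes. Slc2a1 was the highest at 21.8 ± 3.46 FPKM over 20 libraries, and Cldn5 followed at 11.6 ± 1.65. The transporter genes Slco1a4 (8.12 ± 0.696), Mfsd2a (7.55 ± 1.62) and Abcb1a (6.70 ± 0.553) came next. Flt1 was at 5.46 ± 0.451, Ocln at 3.61 ± 0.473, Tek at 3.02 ± 0.277 and Pecam1 at 2.64 ± 0.270 FPKM. Neighbours in this order lay within the sum of their SDs for 4 pairs: Slco1a4 and Mfsd2a, Mfsd2a and Abcb1a, Ocln and Tek, and Tek and Pecam1. Slco1a4 exceeded Mfsd2a in 17 of 20 libraries. Mfsd2a was the fifth of the 9 in female WT, the third in female KO and the fourth in both male groups.

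**Figure D1:**
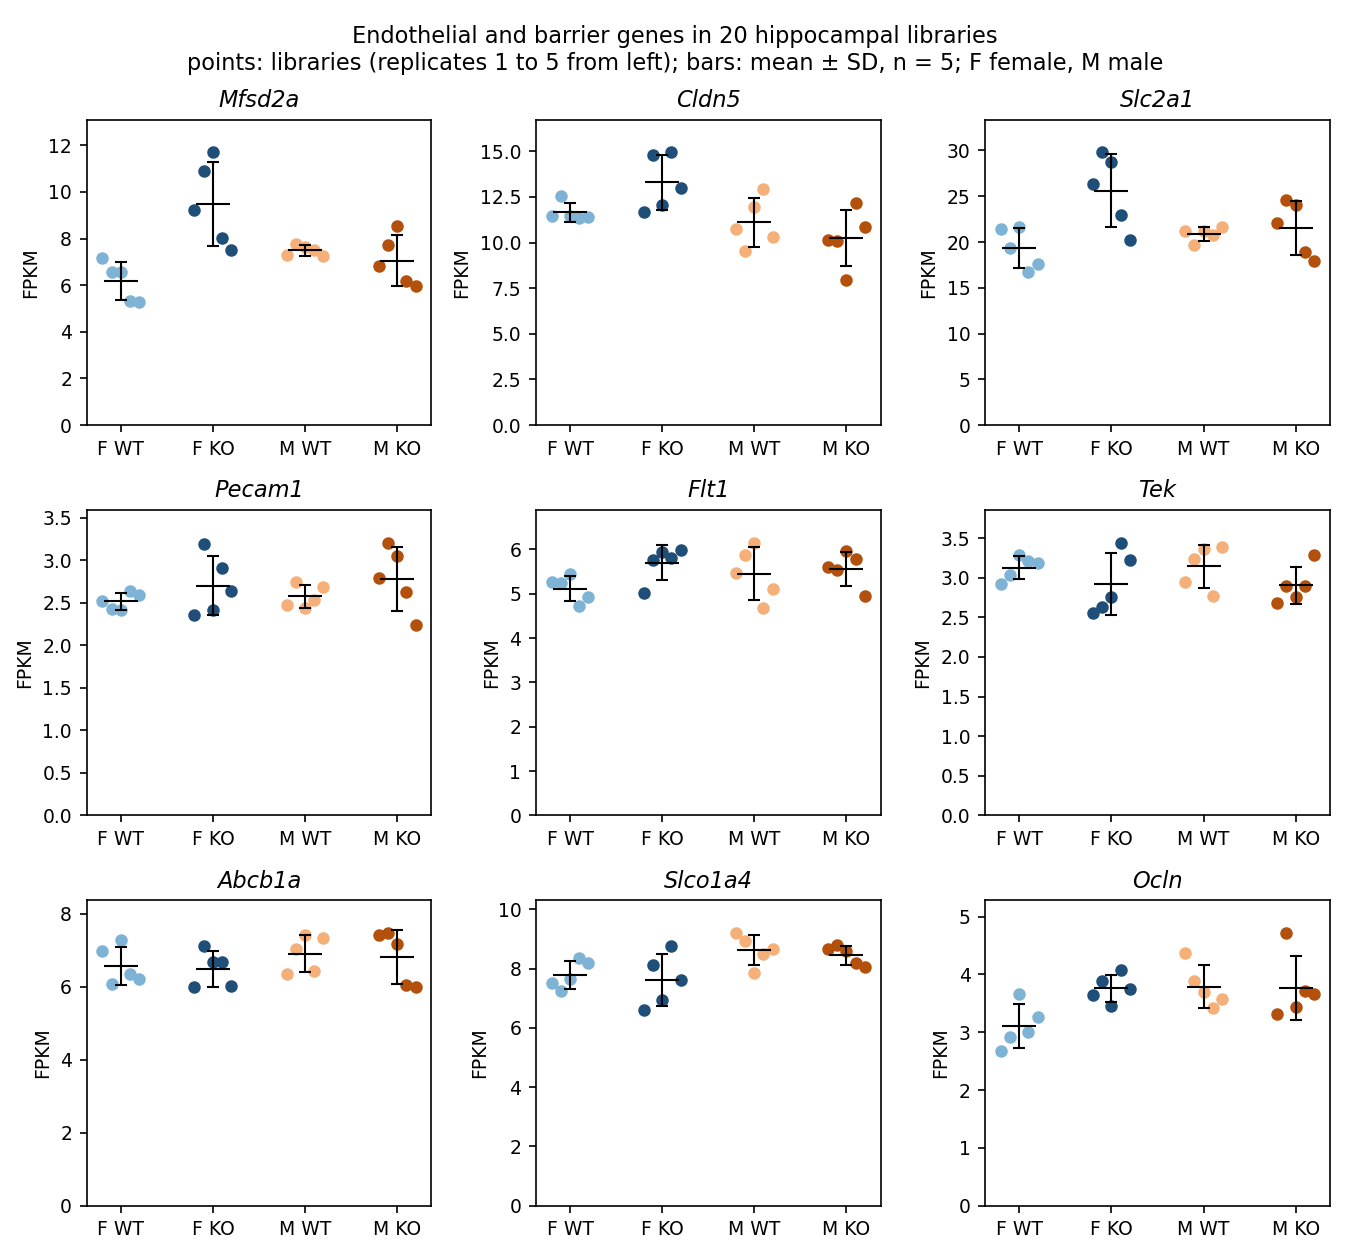
FPKM (y axis, from 0) of each of the 9 genes in the 20 libraries, by group (x axis: F female, M male), with points for libraries and bars for mean ± SD of 5. For Mfsd2a, the 5 female KO libraries (7.50 to 11.7) lie above the 5 female WT libraries (5.27 to 7.15), while the male groups overlap.

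Levels of transporter genes are given first, since the 2 genes that passed in females are among them. Mfsd2a was at 7.15, 6.58, 6.57, 5.33 and 5.27 FPKM in female WT replicates 1 to 5 and at 9.22, 10.9, 11.7, 8.04 and 7.50 in female KO replicates 1 to 5. All 5 KO libraries lay above all 5 WT libraries. KO replicates 2 and 3 were the highest of the 20, and KO replicates 4 and 5, with high Ttr, were the lowest of their group. The difference was 0.54 on the log2(FPKM + 1) scale, with an SE of 0.107, a 95% interval of 0.31 to 0.76 and an adjusted p of 0.0139 (limma, Benjamini-Hochberg over all tested genes). This SE rests on a spread estimated over all 20 libraries. The SD of Mfsd2a ran from 0.218 FPKM in male WT to 1.81 in female KO. An exact two-sided permutation test over all 252 splits gave p = 0.0079, the smallest this design can give.

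Slc2a1 was at 21.4, 19.3, 21.7, 16.8 and 17.6 FPKM in female WT and at 26.3, 29.8, 28.7, 22.9 and 20.2 in female KO. KO replicates 1 to 4 lay above every WT library, and KO replicate 5 lay among the WT values. The difference was 0.38 (interval 0.17 to 0.59, adjusted p = 0.0429, exact permutation p = 0.0238). Its call depended on single libraries: it ended without female WT replicate 2, 3, 4 or 5 or female KO replicate 1, 2 or 3, with adjusted p-values of at most 0.116 over the 10 libraries left out singly. That of Mfsd2a was kept without each of the 10, with adjusted p-values of 0.0088 to 0.0424. In a fit of only the groups compared, 0 of the 9 passed in females, so both calls ended there.

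Abcb1a, which encodes the drug efflux pump P-glycoprotein, was at 6.98, 6.07, 7.28, 6.36 and 6.21 FPKM in female WT and at 5.98, 7.12, 6.69, 6.67 and 6.02 in female KO. The groups overlapped, with a difference of -0.02 (interval -0.16 to 0.12, adjusted p = 0.925). Slco1a4 encodes an organic anion transporter of the barrier. It was at 7.52, 7.24, 7.65, 8.38 and 8.18 FPKM in female WT and at 6.59, 8.11, 6.93, 8.77 and 7.63 in female KO. Its groups overlapped too, with a difference of -0.04 (interval -0.16 to 0.09, adjusted p = 0.794).

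Of the tight junction genes, Cldn5 was at 11.5, 12.5, 11.5, 11.4 and 11.4 FPKM in female WT and at 11.7, 14.8, 12.0, 14.9 and 13.0 in female KO. The KO values reached higher, with 3 of them above every WT library, and the ranges overlapped. The difference of 0.17 (interval -0.02 to 0.36) did not pass (adjusted p = 0.311). Ocln was at 2.67, 2.92, 3.67, 3.01 and 3.26 FPKM in female WT and at 3.64, 3.89, 3.45, 4.08 and 3.74 in female KO. WT replicate 3 was the one WT library within the KO range. Its difference of 0.22 (interval 0.06 to 0.38) had an exact permutation p of 0.0238 and an adjusted p of 0.120, so it failed the correction over all genes.

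The genes of vascular receptors and adhesion did not pass in females. Flt1, which encodes a receptor and decoy for VEGF, was at 5.27, 5.23, 5.44, 4.73 and 4.92 FPKM in WT and at 5.03, 5.76, 5.95, 5.80 and 5.98 in KO. KO replicates 2 to 5 lay above every WT library, and KO replicate 1 lay among the WT values. The difference was 0.13 (interval 0.0015 to 0.26, adjusted p = 0.25). Tek, the receptor of angiopoietins, was at 2.92 to 3.29 FPKM in WT and at 2.56, 2.63, 2.75, 3.44 and 3.23 in KO. KO replicates 1 to 3 were below every WT library and KO replicate 4 was above them all (difference -0.08, interval -0.21 to 0.05, adjusted p = 0.522). Pecam1, a junctional adhesion molecule common to all endothelium, was at 2.42 to 2.64 FPKM in WT and at 2.36 to 3.19 in KO, which spans the WT range. Its difference was 0.07 (interval -0.07 to 0.21, adjusted p = 0.612).

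In all, 2 of the 9 genes were called in females, where 3.32% of the 13174 tested genes were called and 1.8% were called as higher. At an unadjusted p under 0.05 there were 4 of 9 (Mfsd2a, Slc2a1, Ocln and Flt1), against 19.5% of all tested genes. The median difference of the 9 was 0.13, and that of all tested genes was 0.0052. Of the 9, 6 had a difference above 0, as did 52.0% of all tested genes. The 9 were chosen with earlier results of these data known, so these are no independent comparisons. In a whole tissue, more cells of a type and more RNA per cell cannot be told apart.

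Ratios of the 2 genes to Pecam1 and Slco1a4, which did not pass, are given next as a description. Since the 2 genes passed and these 2 did not, higher ratios in female KO largely follow from the calls and are no separate test. The ratio of Mfsd2a to Pecam1 was 2.46 ± 0.403 in female WT and 3.56 ± 0.859 in female KO, with ranges of 2.02 to 2.84 and 2.77 to 4.85. Against Slco1a4 it was 0.800 ± 0.149 and 1.27 ± 0.318. The ratio of Slc2a1 to Pecam1 was 7.71 ± 1.11 and 9.59 ± 1.90. In male WT and KO the ratio of Mfsd2a to Pecam1 was 2.91 ± 0.161 and 2.54 ± 0.192, and that to Slco1a4 was 0.871 ± 0.0669 and 0.832 ± 0.106. The male ratios of Slc2a1 were 8.13 ± 0.604 and 7.73 ± 0.310 to Pecam1, and 2.43 ± 0.191 and 2.54 ± 0.264 to Slco1a4. Also summed were 20 other endothelial identity genes (such as Cdh5, Kdr and Itm2a). Their sum ran from 90.1 to 99.6 FPKM in female WT and from 85.3 to 114 in female KO. KO replicates 2, 3 and 4 (114, 99.9 and 106 FPKM) lay above every WT library, and KO replicate 1 (85.3) lay below every one. High genes weigh most in this sum: Itm2a, Ly6a and Ly6c1 averaged 28.5, 12.7 and 11.2 FPKM in female WT. Of the 20 genes, 14 had a difference above 0, as did 52.0% of all tested genes.

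**Figure D2:**
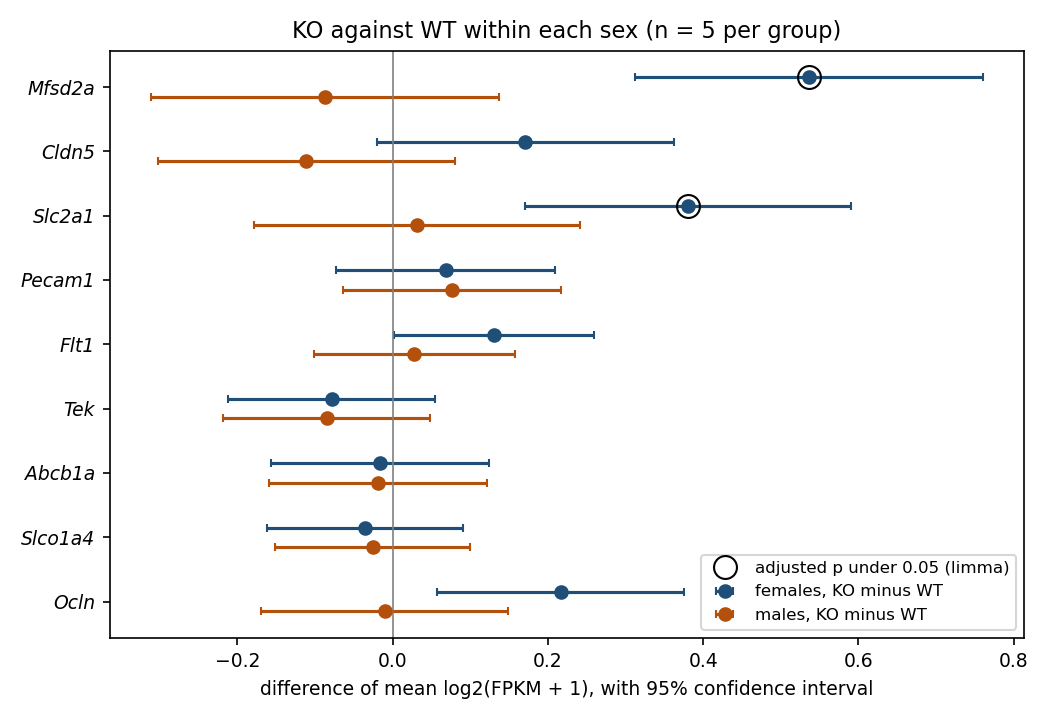
Difference of mean log2(FPKM + 1), KO minus WT (x axis), with 95% confidence intervals, for the 9 genes in females and in males, n = 5 per group. Circles mark adjusted p under 0.05 (limma), which Mfsd2a (0.54) and Slc2a1 (0.38) reach in females and no gene reaches in males.

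Markers of other cells were summed in the female groups as well. Genes of vascular smooth muscle (6 of 8 listed were in the tables) summed to 11 to 18.4 FPKM in female WT and to 13.0 to 39.7 in female KO. Their median difference was 0.41, all 6 were above 0, and 0 of the 6 passed. Pericyte genes (9 of 9) summed to 67.1 to 69.7 and 65.6 to 86.9 FPKM (median 0.08, 0 of 9 passed). Erythrocyte genes (5 of 7 in the tables, globins among them) summed to 310 to 562 FPKM in WT and 432 to 673 in KO. All 5 were above 0, with a median of 0.47, and 0 passed. Meningeal fibroblast genes (9 of 9) summed to 23.4 to 35.3 and 24.9 to 46.8. Of the 8 tested, 7 were above 0 (median 0.25) and 1 passed, the collagen gene Col1a1, at 1.05 FPKM in WT and 1.99 in KO (0.54, adjusted p = 0.0051). Ependymal genes (8 of 9) summed to 12.3 to 26.3 and 22.3 to 31.0 (median 0.28, 0 of 8 passed), and choroid plexus genes (10 of 10) to 13.0 to 917 and 43.6 to 1528 FPKM (median 0.67, 0 of 7 passed). Pituitary genes (3 of 6 in the tables) summed to 0.128 to 4.52 and 0.508 to 129 FPKM, and 0 of the 2 tested passed (median 1.75). Oligodendrocyte genes summed to 605 to 1027 FPKM in WT and 661 to 818 in KO. None of the 10 was above 0 (median -0.16), and Opalin fell from 17.0 to 11.7 FPKM (-0.47, adjusted p = 0.0186). Of 9 tested microglial genes 2 were above 0 (median -0.12), and 0 passed. Neuronal genes summed to 1038 to 1073 and 1086 to 1097 FPKM (median 0.03, 0 of 10 passed). Astrocyte genes summed to 518 to 540 and 535 to 562 FPKM (median 0.06, 0 of 10 passed). At an unadjusted p under 0.05 (limma) there were 5 of 6 smooth muscle, 4 of 5 erythrocyte and 2 of 2 pituitary genes. Each of the other lists named here had 0 to 2 such genes, and 19.5% of all tested genes had such a p. None of these lists was at 0 throughout, and their part in the differences of Mfsd2a and Slc2a1 was not tested beyond the values that follow.

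Without the 4 libraries of high Ttr, Mfsd2a differed by 0.65 (adjusted p = 0.0153) and Slc2a1 by 0.48 (adjusted p = 0.0271) in females. Without the 3 libraries of Prl above 4 FPKM, which leaves 2 female KO libraries, the differences were 0.38 (adjusted p = 0.226) and 0.25 (adjusted p = 0.443). With Ttr and Prl as covariates they were 0.55 (adjusted p = 0.0582) and 0.41 (adjusted p = 0.108). Female KO replicate 1 had Prl listed at 0 and Ttr at 37.4 FPKM, and its Mfsd2a and Slc2a1 values of 9.22 and 26.3 FPKM lay above all WT libraries. Female KO replicate 5, the other without Prl above 4 FPKM (0.191), had Ttr at 1461 FPKM. Its Slc2a1 of 20.2 FPKM was within the WT range and its Mfsd2a of 7.50 was the lowest of its group. The 2 genes that passed also have a high GC content: 56.5% for the transcripts of Mfsd2a and 55.5% for those of Slc2a1, where Cldn5 was at 60.4% and the other 6 at 40.4% to 50.2%. After a trend on GC content was removed from each library, Mfsd2a differed by 0.49 (adjusted p = 0.0263) and Slc2a1 by 0.35 (adjusted p = 0.0793).

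Levels in males follow for each of the 9 genes. Mfsd2a was at 7.28, 7.76, 7.64, 7.50 and 7.27 FPKM in male WT and at 6.81, 7.73, 8.56, 6.17 and 5.99 in male KO. The WT libraries lay close together and the KO libraries spread to both sides of them. The difference was -0.09 (interval -0.31 to 0.14, adjusted p = 0.892, exact permutation p = 0.341). Slc2a1 was at 21.2, 19.7, 21.2, 20.8 and 21.6 FPKM in male WT and at 22.0, 24.6, 24.1, 18.9 and 17.9 in male KO, again with the KO libraries on both sides. Its difference was 0.03 (interval -0.18 to 0.24, adjusted p = 0.967).

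Cldn5 in males was at 10.7, 9.56, 12.0, 12.9 and 10.3 FPKM in WT and at 10.2, 10.1, 7.95, 12.1 and 10.8 in KO. KO replicate 3 was the lowest of the 20 libraries, and the rest overlapped (difference -0.11, adjusted p = 0.789). Ocln was at 3.42 to 4.38 FPKM in WT and at 3.32 to 4.72 in KO, Flt1 at 4.67 to 6.15 and 4.95 to 5.97, and Tek at 2.77 to 3.38 and 2.69 to 3.28. Pecam1 was at 2.44 to 2.75 FPKM in WT and at 2.24 to 3.21 in KO, Abcb1a at 6.34 to 7.41 and 5.98 to 7.48, and Slco1a4 at 7.85 to 9.21 and 8.04 to 8.81. The differences of these 6 genes ran from -0.08 (Tek) to 0.08 (Pecam1). With limma 0 of the 9 passed in males and 0 had an unadjusted p under 0.05, where 0.0455% of all tested genes were called and 8.69% had such a p. The lowest exact permutation p was 0.151, for Tek.

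Subtracting the female from the male KO effect gave -0.62 for Mfsd2a (SE 0.151, interval -0.94 to -0.31, adjusted p = 0.237), -0.35 for Slc2a1 (adjusted p = 0.435), -0.28 for Cldn5 (adjusted p = 0.481) and -0.23 for Ocln (adjusted p = 0.496). These 4 had an unadjusted p under 0.05 and 0 of 9 passed, where 0.0455% of all genes passed and 10% had such a p. A difference between the sexes in the KO effect was therefore not shown for any of the 9, although the unadjusted intervals of these 4 lie below 0. For the mean of both KO effects 0 of 9 passed as well (3.22% of all genes passed and 18% had an unadjusted p under 0.05), with 0.22 for Mfsd2a (adjusted p = 0.115) and 0.21 for Slc2a1 (adjusted p = 0.123), the 2 with an unadjusted p under 0.05.

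Between the sexes in WT, 0 of 9 genes passed (0.129% of all genes), and 3 had an unadjusted p under 0.05 (10.3% of all genes). Mfsd2a was higher in each male than in each female library (7.27 to 7.76 against 5.27 to 7.15 FPKM), with a difference of 0.25 (adjusted p = 0.434). Ocln differed by 0.22 (adjusted p = 0.330) and Slco1a4 by 0.13 (adjusted p = 0.462), with overlapping ranges. In KO, 2 of 9 passed, both lower in males, where 5.38% of all genes passed and 3.13% were lower in males. At an unadjusted p under 0.05 there were 4 of 9 (these 2, Slc2a1 and Slco1a4), against 23.3% of all genes. Cldn5 averaged 13.3 ± 1.52 FPKM in female KO and 10.2 ± 1.52 in male KO (difference -0.35, SE 0.0913, adjusted p = 0.0334). Mfsd2a averaged 9.48 ± 1.81 and 7.05 ± 1.09 FPKM (difference -0.37, SE 0.107, adjusted p = 0.0480). The ranges overlapped for both genes, and neither difference held without each single library. That of Cldn5 ended without female KO replicate 2, 4 or 5 or male KO replicate 1, 2 or 3. That of Mfsd2a ended without female KO replicate 1, 2 or 3 or male KO replicate 1, 2, 4 or 5. Without the 4 libraries of high Ttr, Cldn5 no longer passed (-0.30, adjusted p = 0.215), while Mfsd2a (-0.56, adjusted p = 0.0298) and Slc2a1 (-0.44, adjusted p = 0.0438) did. In a fit of only the groups compared, without the 3 Prl libraries, with Ttr and Prl as covariates, and after removal of the GC trend, 0 of 9 passed in each. The comparisons share libraries: female KO enters both this one and that of KO with WT in females.

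Within groups, Mfsd2a and Slc2a1 varied together from library to library. The Pearson correlation of their deviations from the group means, over 20 libraries, was 0.907, and each was the most alike of 11806 genes to the other. All genes of a library share its RNA and its scaling, so this is a description. In female KO both were highest in replicates 2 and 3 and lowest in 4 and 5, and in male KO both were high in 2 and 3 and lowest in 5. In male WT both spread little, and Mfsd2a was highest (7.76 FPKM) where Slc2a1 was lowest (19.7). Over the 36 pairs of the 9 genes the correlation had a median of 0.145 and was above 0 in 24.

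**Figure D3:**
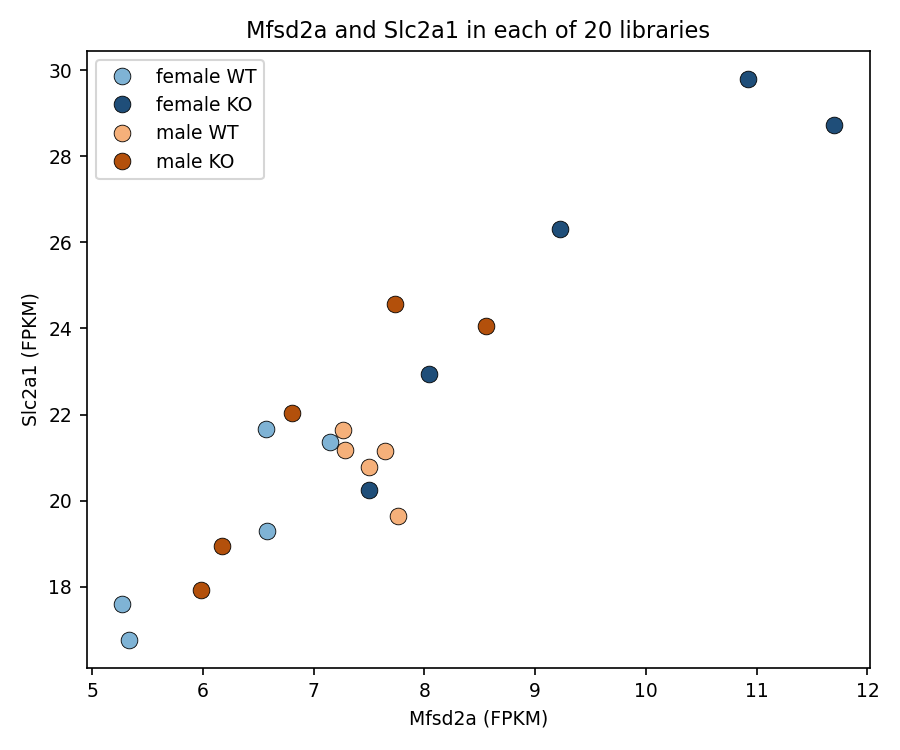
Mfsd2a (x axis) against Slc2a1 (y axis) in FPKM, axes not from 0, 1 point for each of 20 libraries, by group. Female KO replicates 2 and 3 are at the upper right (10.9 and 29.8, 11.7 and 28.7 FPKM) and female WT replicates 4 and 5 at the lower left (5.33 and 16.8, 5.27 and 17.6 FPKM).

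Other pairs were less alike. Pecam1 and Slco1a4 correlated at 0.708, Slc2a1 and Abcb1a at 0.697, and Mfsd2a and Abcb1a at 0.586. Tek ran against both genes that rose in females, at -0.578 with Slc2a1 and -0.568 with Mfsd2a. Correlations of Cldn5 with the other 8 ran from -0.349 (Mfsd2a) to 0.140 (Tek).

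**Figure D4:**
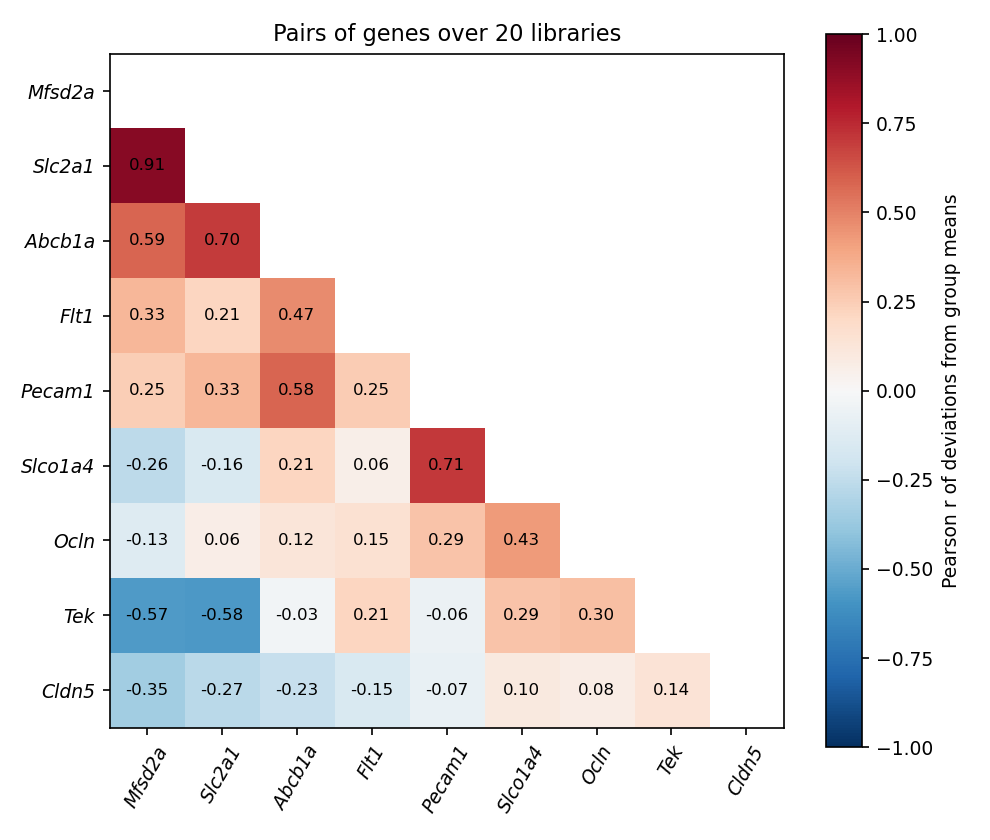
Pearson correlation (colour and number) of the deviations of log2(FPKM + 1) from the group means over 20 libraries, for the 36 pairs of the 9 genes. Mfsd2a and Slc2a1 have the highest value (0.91), and Tek is below 0 with both.

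Among all tested genes with a mean of at least 1 FPKM, those most like Mfsd2a after Slc2a1 were Apln, the gene of the peptide apelin (0.900), and Arrdc2 (0.852). Most like Slc2a1 after Mfsd2a were Klf9, a zinc finger transcription factor (0.894), and Nfkbia, the gene of the NF-kappa-B inhibitor alpha (0.883). For the other 7 the closest gene was no member of the 9. It was Ier5l for Cldn5 (0.769), Mcts2 for Pecam1 (0.767), Stox2 for Flt1 (0.831), Ddah1 for Tek (0.775), Itih5 for Abcb1a (0.810), Trim56 for Slco1a4 (0.847) and Zfp472 for Ocln (0.766). Among the next in order were Vars2 and Mettl2 for Cldn5, Abcg2 for Pecam1, Map1b and mt-Nd5 for Flt1, and Dock6 and Slc6a6 for Tek. They were Bag4 and Slfn5 for Abcb1a, Kcnk10 and Gabra4 for Slco1a4, and Parp12 and Elmsan1 for Ocln. In females 0 of 14 tested neighbours within 1 Mb of Mfsd2a and 0 of 21 of Slc2a1 passed, where 3.32% of all genes did. Between KO males and KO females, 1 of 14 neighbours of Mfsd2a (Hpcal4) and 1 of 25 of Cldn5 (Rtn4r) passed. There 5.38% of all genes passed.

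Other genes of vessels and the barrier, from 11 lists with 137 genes of which 126 were tested, gave 5 calls in females, where 3.32% of all tested genes were called. Of these, 4 were higher and 1 was lower. Among the 126, 83 were above 0 and the median difference was 0.06, against 52.0% above 0 and a median of 0.0052 over all tested genes. The lists were chosen with earlier results of these data known, so this is no independent comparison. The median of the 126 was 0.0189 without the Ttr libraries, 0.0296 without the Prl libraries and 0.0247 with both genes as covariates. Without single libraries it ran from 0.0396 to 0.0930. Slc2a3, a glucose transporter mainly of neurons, rose from 17.3 to 20.4 FPKM (0.23, SE 0.0496, adjusted p = 0.0186). Nos3, the endothelial nitric oxide synthase, rose from 1.26 to 2.06 (0.43, SE 0.0843, adjusted p = 0.0132). Fads1, a desaturase of polyunsaturated fatty acid synthesis, rose from 57.4 to 64.5 (0.17, adjusted p = 0.0132), and Spock2, a proteoglycan gene expressed well beyond vessels, from 135 to 149 (0.14, adjusted p = 0.0311). Tfrc, the transferrin receptor that carries iron into the brain, fell from 24.6 to 19.4 FPKM (-0.33, SE 0.0745, adjusted p = 0.0240). The call of Tfrc ended without female WT replicate 4 or 5 or female KO replicate 2, 3 or 5, and that of Spock2 without female KO replicate 2, 3, 4 or 5. Without the 3 Prl libraries 0 of the 126 passed, without the 4 Ttr libraries 1 passed (Tfrc), and with both genes as covariates 1 passed (Tfrc).

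By list, transporters of the barrier had 1 higher and 1 lower call of 20 in females, and 12 were above 0 (median 0.06). VEGF signalling had 1 higher call of 11 (Nos3) and a median of -0.02, with 4 above 0. Handling of docosahexaenoate and lysophospholipids, the lipids that MFSD2A carries, had 1 higher call of 15 (Fads1), and 12 were above 0 (median 0.08). Capillary endothelium had 1 higher (Spock2) and 1 lower (Tfrc) of 7, with a median of -0.02. The other 7 lists had no call. In endothelial identity (0 of 20, median 0.05), Esam was at 3.16 and 3.72 FPKM (0.19, adjusted p = 0.0740) and Sox18 at 2.96 and 3.62 (0.22, adjusted p = 0.199). Junction genes (0 of 12) had a median of 0.0022, and Lsr, a junction protein gene, was at 1.87 and 2.45 FPKM (0.27, adjusted p = 0.156).

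In angiopoietin and Tie signalling (0 of 6, median 0.05), Klf2, a flow-responsive factor of endothelium, was at 3.21 and 4.60 FPKM (0.43, adjusted p = 0.0653), and Tie1 at 1.51 and 1.68 (0.09, adjusted p = 0.494). In Wnt signalling of the barrier (0 of 18, median 0.09), Adgra2, a co-receptor for the brain's Wnt7 ligands, was at 1.18 and 1.95 FPKM (0.45, adjusted p = 0.0603), and Lrp5 at 0.902 and 1.09 (0.14, adjusted p = 0.164). Caveolar and transcytosis genes (0 of 10, median 0.09) included Ehd2 at 0.16 (adjusted p = 0.179) and Picalm at -0.07 (adjusted p = 0.271). Arterial genes (0 of 11, median 0.09) included Efnb2 at 0.25 (adjusted p = 0.124) and Mgp at 0.45 (adjusted p = 0.186). Venous genes (0 of 6, median 0.12) included Ephb4 at 0.12 (adjusted p = 0.242) and Ackr1 at 1.24 (adjusted p = 0.303).

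In males 0 of the 126 passed (0.0455% of all tested genes), with a median of 0.01. Nearest to the threshold was Car4, a carbonic anhydrase of capillaries, at 16.5 FPKM in WT and 14 in KO (-0.22, adjusted p = 0.148), followed by Fads1 (0.12, adjusted p = 0.190). The remaining genes of the lists had adjusted p-values of at least 0.392 (Robo4, 0.17). For the mean of both KO effects, Slc2a3 (0.17, adjusted p = 0.0138) and Fads1 (0.15, adjusted p = 0.0028) were higher, and Tfrc (-0.19, adjusted p = 0.0499) and Car4 (-0.20, adjusted p = 0.0081) lower. Of these, the call of Tfrc was kept without female WT replicate 1, female KO replicate 4, male WT replicate 3 or male KO replicate 1, and ended without any other single library. Without the 3 Prl libraries 1 of the 126 passed (Fads1, adjusted p = 0.0402), and the adjusted p-values of Tfrc, Slc2a3 and Car4 were 0.0600, 0.0625 and 0.0876. Between the sexes in WT, and for the difference of the KO effect, 0 of 126 passed. Between KO males and KO females 7 of 126 passed, where 5.38% of all tested genes did. Tfrc was higher in males (24.3 against 19.4 FPKM, adjusted p = 0.0264). Sox18, Vegfa, Nos3, Cavin3, Mgp and Spock2 were lower, by -0.13 (Spock2) to -0.70 (Mgp), with adjusted p-values of 0.0208 to 0.0480. Of these 7 calls 0 were kept without the 3 Prl libraries, and 1 (Tfrc) without the 4 Ttr libraries. The call of Sox18 ended without female KO replicate 2, that of Nos3 without replicate 3 of female KO or 1 of male KO, and that of Tfrc without female KO replicate 2, 3 or 5 or male KO replicate 1 or 2. Vegfa ended without any of the 10 libraries, Mgp without any but female KO replicate 1, and Cavin3 and Spock2 without any but female KO replicate 1 and male KO replicate 3.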

How the data were processed

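RNA from the hippocampus was measured in 20 libraries, 5 in each of 4 groups, whose group and replicate number come from the sample titles. TRIzol was used for RNA extraction and a SMARTER mRNA kit for the libraries, per the labels' protocols. The deposited values are FPKM per gene, made by the authors, with FastQC, HISAT2, StringTie and the build mm10 per the submitters' processing notes. The sources used here do not give versions, annotation release or strand setting. FPKM summed to 230631 to 244976 in a library, which is no depth, and low values (the smallest is 2e-06) showed no steps of whole reads.

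Genes reaching 0.5 FPKM in at least 5 libraries were kept. Values were taken as log2(FPKM + 1), which understates the change of low genes, and fitted in R 4.3.3 by limma-trend (limma 3.58.1) with 4 group means over 20 libraries, calling adjusted p under 0.05. GC content is the mean over a gene's GENCODE M21 transcripts. The fit was tested on simulated data in which each gene varied independently, so that check cannot speak for differences shared by many genes of a library. The 9 genes and the gene lists were chosen with earlier results of these data known. Members are named in every comparison. From each list, genes past the threshold are named, and in the KO comparisons within each sex, where none passed, the 2 with the smallest p, of which some in males are given by their lowest adjusted p. Up to 3 most alike genes are named for each member. Results of some genes are not reported here. Alternatives were another scaling, filters, pseudocount, robust and weighted fits, only the groups compared, the replicate number as a block and each library left out. Those on Ttr, Prl and GC content (loess, span 0.5, degree 1) were added after the data were seen.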

Additional observations from a re-analysis of the deposited data

Results flagged for a closer look

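In 36 sets of 5 libraries (9 genes in 4 groups), 3 held a library far from its group by Dixon's criterion (a gap of more than 0.71 of the group's range), and chance gives about 1 in 20. Cldn5 was at 12.53 FPKM in female WT replicate 2, where the next library was at 11.48 and the lowest at 11.35. Flt1 was at 5.027 FPKM in female KO replicate 1, below 5.758 in the next and 5.978 in the highest. Ocln was at 4.717 FPKM in male KO replicate 2, the highest of all 20 libraries, above 3.716 in the next and 3.318 in the lowest. No group was far out for Mfsd2a or Slc2a1.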

How the results depend on the processing

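In females, the 2 calls among the 9 genes became 0 in a fit of only the groups compared, 0 without the Prl libraries, 0 with Ttr and Prl as covariates and 1 after removal of the GC trend, and ranged from 1 to 2 without single libraries. Those between KO males and KO females went from 2 to 0 in a fit of only the groups compared, without the Prl libraries, with the covariates, and after removal of the GC trend with or without the block, and ranged from 0 to 1 without single libraries. For the mean of both KO effects the replicate block gave 1 call in place of 0 (Mfsd2a, adjusted p = 0.0315), also with the GC trend removed (1 call). The difference of the KO effect gave 1 call with both (Mfsd2a, -0.59, adjusted p = 0.0402). Deviations of log2 values from the group means correlated between same-numbered libraries at -0.105 to 0.0651, so the numbers were not taken as pairs. Over all genes, the calls in females numbered 438, and 320 with the replicate block, 91 for only the groups compared, 78 without the Ttr libraries, 8 without the Prl libraries, 39 with the covariates and 246 after removal of the GC trend. Those between KO males and females numbered 709, and 67, 23, 75 and 103 under the last 4. Among the 126 vascular genes, the 5 female calls became 2 for only the groups compared and 3 after removal of the GC trend (3 to 7 without single libraries), and the 7 between KO sexes became 11 with library weights, 1 with the covariates and 0 after removal of the GC trend (1 to 10). For the mean of both effects the 4 became 1 without the Prl libraries (3 to 5 without single libraries).

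Some small differences changed sign: Slc2a1 in males was -0.02 without the Ttr libraries, Pecam1 in females -0.0085 without the Prl libraries, and in females Abcb1a 0.0108 and Slco1a4 0.0285 after removal of the GC trend, with or without the block. Without single libraries, Abcb1a in females ranged from -0.0454 to 0.0166, Slco1a4 in females from -0.0825 to 0.0083, Ocln in males from -0.0773 to 0.0327, Abcb1a in males from -0.0492 to 0.0206, Flt1 in males from -0.0173 to 0.0664 and Slc2a1 in males from -0.0176 to 0.0910. The causes of these changes were not tested. Depth is unknown, so precision rests on the spread between libraries, which the main fit estimated over all 20 libraries and not within the groups compared alone.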
